A study of Homo sapiens with 6 samples.

Results

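The suppressor of cytokine signaling (SOCS) family was described in SiHa cells that overexpressed BRCA1. The family was taken as 8 genes, SOCS1 to SOCS7 and CISH, out of 58174 genes in the deposited table. SiHa is an established human cell line from a cervical squamous cell carcinoma. The cells received either the GV230-BRCA1 plasmid (OV-BRCA1 group, 3 samples) or the empty GV230 plasmid (NC group, 3 samples), both with the same lipid reagent, and RNA was taken after 48 h. Each group was called 3 biological replicates by the study, and all of them come from 1 cell line with transient transfection. The measured quantity was FPKM, which is the number of fragments per kilobase of transcript, scaled to the mapped fragments in the library. All 8 genes passed the filter on low values, which asked for 0.5 FPKM or more in 3 or more samples, and so did 16321 genes in all.

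JAK/STAT signaling starts when a cytokine binds a receptor that carries JAK kinases. The kinases phosphorylate the receptor and STAT factors, and the STAT factors then enter the nucleus and switch on target genes. Several SOCS genes are themselves such targets, and their proteins bind phosphorylated receptors or JAK kinases through an SH2 domain. The SOCS box at the end of each protein recruits elongins and a cullin to form a ubiquitin ligase. The family therefore works as a feedback brake on cytokine, interferon and growth factor signals. CISH, SOCS1, SOCS2 and SOCS3 are best known as cytokine-induced inhibitors, whereas SOCS4 to SOCS7 are mostly linked to receptor tyrosine kinases and insulin signaling.

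BRCA1, the overexpressed gene, had an FPKM of 35.7, 40.8 and 34.9 in OV-BRCA1 samples 1 to 3 and of 20.1, 14.9 and 21.7 in NC samples 1 to 3 (log2 fold change 0.95, limma adjusted p = 0.00372). The FPKM tables hold no read totals. The study's supplement gives the total reads of each library, which were not used here. The fragments behind the FPKM values were estimated from low values at 14.0 to 16.5 M fragments for OV-BRCA1 samples and 15.9 to 19.6 M for NC samples. Of 10 epithelial markers, KRT7, KRT8, KRT17 and KRT18 were abundant in all samples, whereas KRT5, KRT14, TP63 and CDH1, which mark squamous or epithelial cells, stayed below 1 FPKM. The 10 markers summed to 3208 to 3359 FPKM in the OV-BRCA1 group and 3585 to 3709 in the NC group. By limma, KRT17 fell by 0.48 on the log2 scale, while KRT18, KRT8 and EPCAM rose by 0.39, 0.20 and 1.12. The study's supplement lists KRT17 and also KRT8 among its downregulated DEGs, so the direction of KRT8 there differs from the one here. The leukocyte genes PTPRC and MS4A1 were listed at 0 in every sample, and the 8 leukocyte markers summed to 31.4 to 37.2 FPKM against 22.2 to 24.0, nearly all of it CD68 and CD14. These moved in opposite directions, CD68 from 3.43 to 26.3 FPKM (log2 fold change 2.63, limma adjusted p = 9.75e-05) and CD14 from 19.4 to 7.79 FPKM (log2 fold change -1.22, limma adjusted p = 5.94e-04). The 7 fibroblast markers summed to 3.33 to 4.03 against 6.20 to 6.75 FPKM, nearly all of it COL1A1, and the 6 endothelial markers to 0.870 to 1.54 against 0.712 to 0.841 FPKM. The part of these markers in the results was not tested.

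SOCS1 and SOCS5 were higher in the OV-BRCA1 group, and no family member was lower by the test used. The mean FPKM of SOCS1, which blocks JAK kinases directly, was 99.6% higher, while SOCS3, the main brake on IL-6 type cytokines, differed by 0.01 on the log2 scale. Each gene was tested with limma on the log2(FPKM + 1) scale, with p-values Benjamini-Hochberg adjusted over all 16321 genes. With an adjusted p-value below 0.05, 2 of 8 members (25.0%) passed, both of them higher, where 35.3% of all tested genes passed and 16.4% passed as higher. The share of members was thus below the background in either direction together and above it for higher genes, where it rests on 2 genes. At an unadjusted p-value below 0.05, 4 members passed, SOCS1, SOCS2 and SOCS5 as higher and SOCS7 as lower, where 46.0% of all tested genes did. None reached the study's criterion for DEGs, which adds an absolute log2 fold change above 1. The study applied it to DESeq results, and here it was applied to limma on log2(FPKM + 1). It was met by 3.99% of all tested genes (2.89% higher and 1.1% lower). The added 1 FPKM makes log2 fold changes smaller at low FPKM, so SOCS1 stood at 0.81 with a mean 99.6% higher. With 0.1 FPKM added instead, SOCS1 stood at 0.97, and again 0 members met the criterion. Over the 8 members the median log2 fold change was 0.23, beside -0.04 over all tested genes. In 5 members (SOCS1, SOCS2, SOCS5 and SOCS6 higher, SOCS7 lower) the groups were fully separate, which held for 50.8% of the tested genes, 23.4% higher and 27.4% lower.

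**Figure D1:**
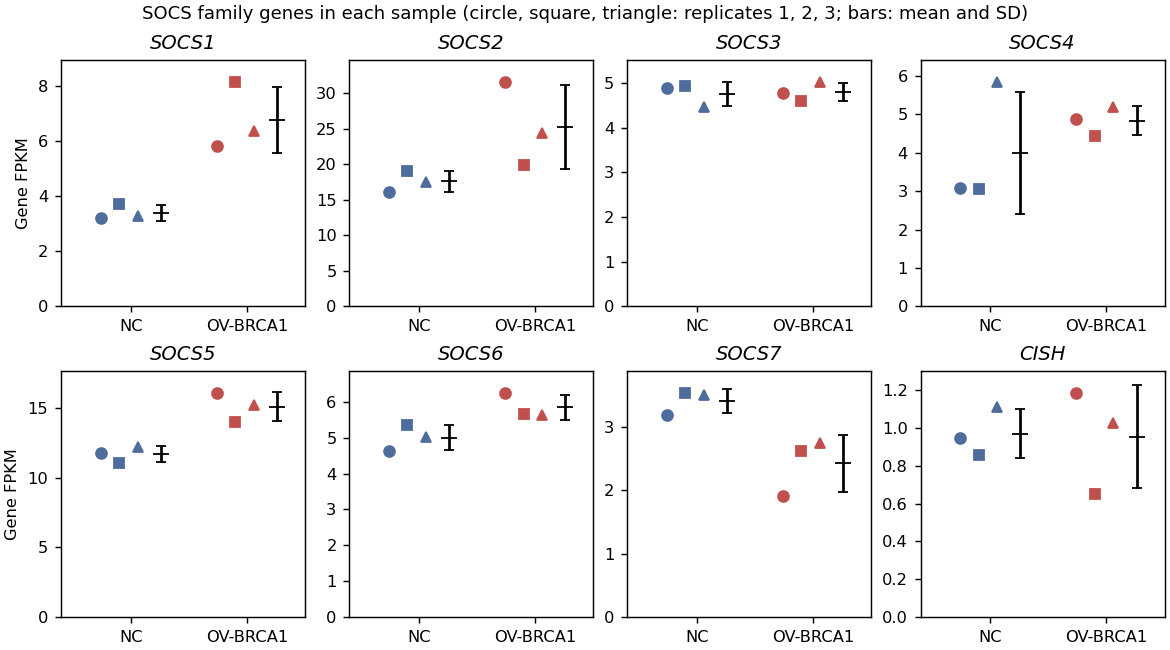
Gene FPKM (vertical axes, each from 0) of the 8 family members in the 3 NC samples (blue) and the 3 OV-BRCA1 samples (red), with mean and SD as black bars. SOCS1 lies at 5.83 to 8.12 FPKM in the OV-BRCA1 group and at 3.20 to 3.71 in the NC group, whereas SOCS3 spans 4.46 to 5.02 over all 6 samples.

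SOCS1 (ENSG00000185338, chromosome 16, 11254405 to 11256200, GRCh38) had the largest log2 fold change of the family in summed FPKM. As length-weighted FPKM or with the most abundant transcript alone, that of SOCS7 was larger in size and did not pass. Its FPKM was 5.83, 8.12 and 6.37 in OV-BRCA1 samples 1 to 3 and 3.20, 3.71 and 3.27 in NC samples 1 to 3. The groups were separate, and the highest value belonged to OV-BRCA1 sample 2. The means were 6.77 ± 1.20 and 3.39 ± 0.281 FPKM (SD, n = 3 each). The log2 fold change was 0.81 (standard error 0.13, limma adjusted p = 0.00417). It stayed past the threshold in each of the 15 alternatives planned, between 0.69 and 0.97 on the log2 scale. As these were bulk samples, a larger share of cells with SOCS1 and more SOCS1 RNA per cell cannot be told apart.

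The SOCS1 values rested on an estimated 62.1 to 164.5 fragments per sample. SOCS1 lies within RMI2, a gene of the opposite strand that encodes a partner of the BLM helicase complex, and none of its 1796 exonic bases falls in an RMI2 exon. RMI2 stood at 21.6 to 25.8 FPKM in the OV-BRCA1 group and 25.8 to 32.6 in the NC group (log2 fold change -0.24, limma adjusted p = 0.147). Whether the counting used the strand is not given in the sources used here. The files list a single SOCS1 transcript, SOCS1-201. Tested among 50925 transcripts it also passed (limma adjusted p = 0.0433), and it was the only one of 19 tested member transcripts to do so, where 5.47% of all tested transcripts passed. The SOCS1-201 call was lost with any single sample left out.

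The promoter window of SOCS1 is shown because SOCS1 is a textbook interferon target and passed the test in every planned setting. The RefSeq windows used here cover 250 bases before and 50 bases after a start, and 5 of the 8 members had at least 1 window. Each window was searched on both strands for GAAA, any 2 bases and GAAA again, the paired core that interferon regulatory factors recognize (here the IRF motif), and for the GAS motif TTCNNNGAA, which STAT dimers bind and which reads the same on both strands. Capitals mark a match. The SOCS1 window is chr16:11256155-11256454, GRCh38.p14, minus strand:
SOCS1: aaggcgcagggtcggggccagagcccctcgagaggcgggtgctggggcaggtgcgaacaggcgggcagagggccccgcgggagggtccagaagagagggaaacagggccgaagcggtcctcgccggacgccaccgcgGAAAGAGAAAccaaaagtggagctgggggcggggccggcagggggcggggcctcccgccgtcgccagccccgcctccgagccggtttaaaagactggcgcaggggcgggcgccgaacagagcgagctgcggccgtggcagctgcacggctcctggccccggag
It held 1 IRF motif match, GAAAGAGAAA, which starts 113 bases before the start, and no GAS match. Of all 35116 RefSeq windows, 3.57% held the IRF motif and 7.66% held TTCNNNGAA. No match to the IRF motif was found in the windows of CISH, SOCS3, SOCS4 or SOCS6.

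SOCS3 (ENSG00000184557, chromosome 17, 78356778 to 78360077) binds the shared IL-6 receptor subunit IL6ST and JAK kinases. Its FPKM was 4.77, 4.61 and 5.02 in the OV-BRCA1 group and 4.89, 4.93 and 4.46 in the NC group. Both groups lay within the same narrow range. Its log2 fold change was 0.01 (standard error 0.08, limma adjusted p = 0.935), with a 95% confidence interval of -0.17 to 0.19, so that a change above 1.14-fold or below 0.886-fold on the FPKM + 1 scale lay outside the interval. The estimated number of fragments was 191.8 to 252.0 per sample.
The ratio of SOCS1 to SOCS3 FPKM was 1.22, 1.76 and 1.27 in OV-BRCA1 samples 1 to 3 and 0.653, 0.753 and 0.733 in NC samples 1 to 3. SOCS1 was thus the higher of the pair in every OV-BRCA1 sample and the lower in every NC sample.
Neither of the 2 RefSeq windows of SOCS3 held a GAS or an IRF motif match. They do not cover the start of SOCS3-201, at position 78360077, so they do not describe the bases just before it. The window of its divergent neighbor SOCS3-DT held 1 GAS match, which lies 341 bases upstream of the SOCS3 start in GENCODE. It is shown with 10 bases on each side, at chr17:78360408-78360436, GRCh38.p14, plus strand:
SOCS3-DT: cccccctcccTTCTAAGAAggctgatttc

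CISH (ENSG00000114737, chromosome 3, 50606490 to 50611831), the founding member and a brake on STAT5, was the lowest gene of the family. Its FPKM was 1.18, 0.652 and 1.03 in the OV-BRCA1 group and 0.945, 0.855 and 1.11 in the NC group. OV-BRCA1 sample 2 was the lowest of all, and the groups overlapped. The log2 fold change was -0.02 (standard error 0.13, 95% confidence interval -0.33 to 0.29, limma adjusted p = 0.922). Only an estimated 27.4 to 45.6 fragments per sample stood behind these values, the fewest of the family. CISH shares 218 of its 5112 exonic bases with MAPKAPK3 on the opposite strand, a protein kinase that rose by 0.33 on the log2 scale (limma adjusted p = 0.0217).
The CISH window is shown for its cluster of GAS motifs. It is chr3:50611725-50612024, GRCh38.p14, minus strand, with the GAS matches in capitals:
CISH: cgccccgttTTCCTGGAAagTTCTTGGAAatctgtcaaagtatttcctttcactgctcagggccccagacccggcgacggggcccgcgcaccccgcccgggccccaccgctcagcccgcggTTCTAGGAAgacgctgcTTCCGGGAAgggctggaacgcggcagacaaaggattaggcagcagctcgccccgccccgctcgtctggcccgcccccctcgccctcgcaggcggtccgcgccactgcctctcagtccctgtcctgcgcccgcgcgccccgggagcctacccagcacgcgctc
The window held 4 GAS matches, TTCCTGGAA, TTCTTGGAA, TTCTAGGAA and TTCCGGGAA, which start 241, 230, 129 and 112 bases before the start and do not overlap. At least 4 such matches were found in 7 of the 35116 windows (0.0199%).

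SOCS2 (ENSG00000120833, chromosome 12, 93569814 to 93583487), a brake on growth hormone signaling, had the highest summed FPKM of the family in both groups. Its FPKM was 31.5, 19.8 and 24.5 in OV-BRCA1 samples 1 to 3 and 16.1, 19.1 and 17.5 in NC samples 1 to 3. The groups did not overlap, but OV-BRCA1 sample 2 lay close to NC sample 2 and OV-BRCA1 sample 1 stood apart. This gave a log2 fold change of 0.48 (standard error 0.16, limma adjusted p = 0.0644) and missed the threshold. Without OV-BRCA1 replicate 2 it was 0.63 and passed (limma adjusted p = 0.0219).
Most of the excess of OV-BRCA1 sample 1 came from 1 of 12 listed transcripts. SOCS2-209 stood at 15.6 FPKM in that sample, at 0.335 and 2.52 in OV-BRCA1 samples 2 and 3 and at 0.117, 3.65 and 0 in NC samples 1 to 3. With SOCS2-209 left out, a choice made after the values were seen, SOCS2 summed to 15.9, 19.5 and 21.9 against 16.0, 15.4 and 17.5 FPKM, the groups overlapped, and the log2 fold change was 0.21 (limma adjusted p = 0.230).
A short transcript of 984 bases gives more FPKM per fragment than a long one. The values were therefore also summed as FPKM times transcript length in kb (length-weighted FPKM), which follows the number of fragments, again a choice made after the values were seen. On that scale SOCS2 stood at 41.7, 35.0 and 37.9 in OV-BRCA1 samples 1 to 3 and at 28.7, 31.8 and 28.8 in NC samples 1 to 3. The samples of each group then lay closer together, and SOCS2 passed with a log2 fold change of 0.35 (standard error 0.08, limma adjusted p = 0.0166). The antisense RNA SOCS2-AS1, which shares 277 of the 6776 exonic bases of SOCS2, stood at 4.77, 6.18 and 5.11 against 6.07, 5.12 and 5.46 FPKM (log2 fold change -0.05, limma adjusted p = 0.763).

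SOCS5 (ENSG00000171150, chromosome 2, 46698952 to 46780245), linked to EGFR turnover and IL-4 receptor signaling, was the second gene that rose. Its FPKM was 16.1, 14.0 and 15.2 in the OV-BRCA1 group and 11.8, 11.0 and 12.2 in the NC group. The lowest OV-BRCA1 sample lay above the highest NC sample. The means were 15.1 ± 1.04 and 11.7 ± 0.586 FPKM (SD, n = 3 each), which is 29.2% more. The log2 fold change was 0.34 (standard error 0.07, limma adjusted p = 0.0147), and it was 0.34 as length-weighted FPKM as well (limma adjusted p = 0.00803). SOCS5 kept its call without any single sample, with adjusted p-values of 0.0185 to 0.0475 in limma.
SOCS5 shares 160 of its 7598 exonic bases with LINC01118 on the same strand, which stayed at or below 0.438 FPKM. The files divide SOCS5 over 2 transcripts. SOCS5-202 held most of it, at 14.5, 13.6 and 13.4 against 9.04, 7.69 and 11.9 FPKM. SOCS5-201 varied from 0.262 to 3.35 FPKM and was lowest where SOCS5-202 was highest within the NC group. SOCS5-202 in place of the sum gave a log2 fold change of 0.51 that did not pass (limma adjusted p = 0.0791).

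SOCS4 (ENSG00000180008, chromosome 14, 55027230 to 55049488), the closest relative of SOCS5, varied most within the NC group. Its FPKM was 4.87, 4.44 and 5.18 in the OV-BRCA1 group and 3.08, 3.05 and 5.83 in the NC group. NC sample 3 was the highest of all 6 samples, while the other NC samples were the lowest. The difference on the log2 scale was 0.27 (standard error 0.21, 95% confidence interval -0.25 to 0.78, limma adjusted p = 0.370). Without NC replicate 3 it was 0.52 and passed (limma adjusted p = 0.0175), so 1 library decided the call. As length-weighted FPKM, NC sample 3 also stood apart, at 36.4 against 19.2 in both other NC samples and 27.4 to 30.0 in the OV-BRCA1 group.

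SOCS6 and SOCS7, which bind receptor tyrosine kinases and their adaptors, form a further related pair. SOCS6 (ENSG00000170677, chromosome 18, 70288901 to 70330200) had an FPKM of 6.25, 5.66 and 5.64 in the OV-BRCA1 group and 4.64, 5.35 and 5.01 in the NC group. The groups did not overlap, but the difference was small, with a log2 fold change of 0.19 (standard error 0.08, limma adjusted p = 0.121). As length-weighted FPKM the groups of SOCS6 overlapped, at 30.3 to 33.0 against 26.7 to 31.3 (log2 fold change 0.14, limma adjusted p = 0.193). With the most abundant transcript alone the log2 fold change was 0.06 (limma adjusted p = 0.764).
SOCS7 (ENSG00000274211, chromosome 17, 38352228 to 38405593) was the only member whose OV-BRCA1 samples all lay below the NC samples. Its FPKM was 1.91, 2.61 and 2.75 in the OV-BRCA1 group and 3.185, 3.537 and 3.504 in the NC group. The log2 fold change was -0.37 (standard error 0.12, limma adjusted p = 0.0528) and just missed the threshold. It passed with scaling to nuclear protein-coding genes (limma adjusted p = 0.0454) and with a stricter filter (0.0441). As length-weighted FPKM the log2 fold change was -1.10 (limma adjusted p = 0.173), and with the most abundant transcript alone it was -0.86 (limma adjusted p = 0.272).
In OV-BRCA1 sample 1 SOCS7 was listed under another transcript than in the rest. SOCS7-201, of 7857 bases, stood at 0 in that sample, at 2.11 and 2.03 in OV-BRCA1 samples 2 and 3 and at 2.78 to 2.88 FPKM in the NC group. In its place SOCS7-202, of 1827 bases, stood at 1.68 FPKM in OV-BRCA1 sample 1 and at 0.0266 to 0.334 elsewhere. The sample held an estimated 50.9 fragments of SOCS7, and the others 233.7 to 444.4. Without OV-BRCA1 replicate 1 the log2 fold change was -0.26 (limma adjusted p = 0.0930).

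**Figure D2:**
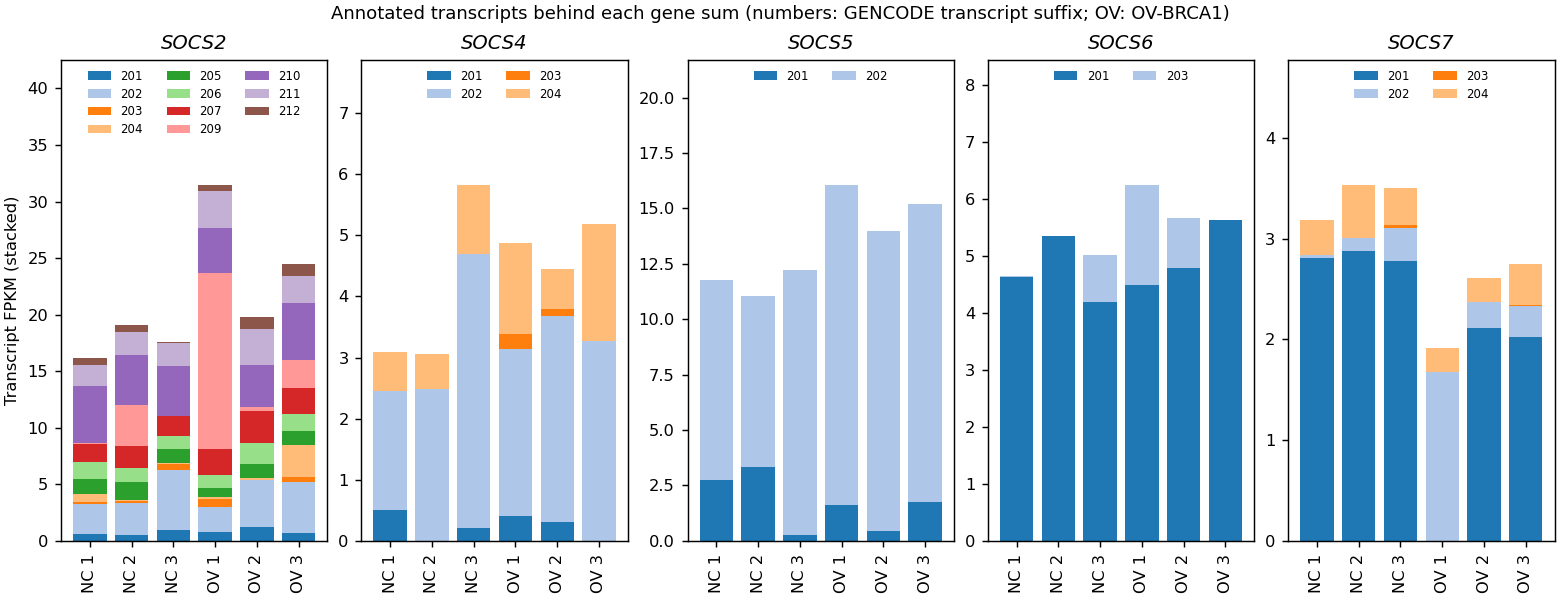
Stacked transcript FPKM (vertical axes from 0) of SOCS2, SOCS4, SOCS5, SOCS6 and SOCS7 in each NC and OV-BRCA1 sample, with 1 color per listed transcript. SOCS2-209 fills 15.6 FPKM of OV-BRCA1 sample 1, and SOCS7-202 replaces SOCS7-201 in the same sample.

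**Figure D3:**
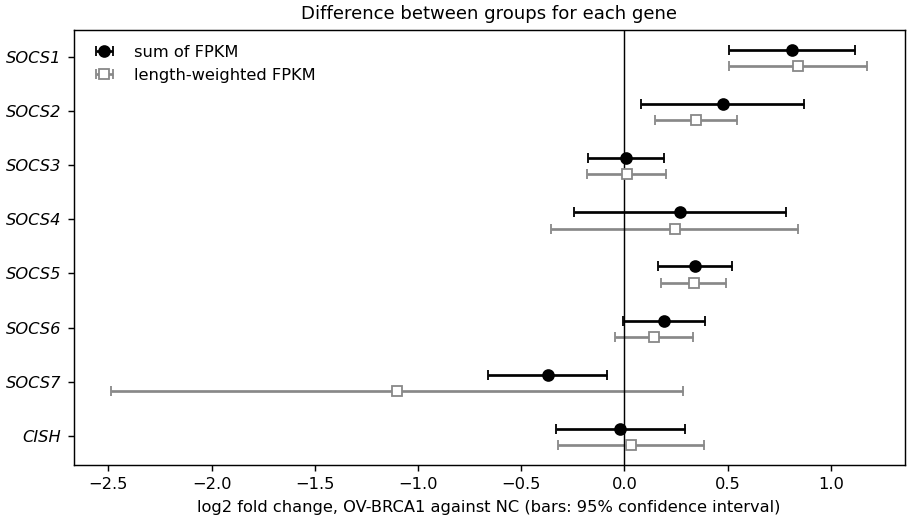
The log2 fold change of each family member, OV-BRCA1 against NC (horizontal axis, 95% confidence interval from limma), for summed FPKM (filled circles) and for length-weighted FPKM (open squares). SOCS1 and SOCS5 lie above 0 on both scales, SOCS3 and CISH lie at 0, and the interval of SOCS7 widens from -0.66 to -0.08 on the first scale to -2.49 to 0.28 on the second.

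FPKM is per length, so the members were set in order by their summed FPKM. These sums depend on how fragments were assigned to transcripts. In OV-BRCA1 sample 1, SOCS2-209 made up 15.6 of the 31.5 FPKM of SOCS2. Without that transcript SOCS2 stood at 15.9 FPKM in this sample, beside 16.1 for SOCS5. In the NC group the order was SOCS2 (17.6), SOCS5 (11.7), SOCS6 (5.00), SOCS3 (4.76), SOCS4 (3.99), SOCS7 (3.41), SOCS1 (3.39) and CISH (0.970 FPKM). There, neighbors from SOCS6 down to SOCS1 overlapped in their samples, and the steps from SOCS2 to SOCS5, from SOCS5 to SOCS6 and from SOCS1 to CISH did not overlap. In the OV-BRCA1 group SOCS1 moved from the seventh to the third place, at 6.77 FPKM, where its samples overlapped those of SOCS6 (5.85). Among all tested genes the NC mean of SOCS1 lay at the 35.7 percentile and its OV-BRCA1 mean at the 50.4 percentile.
The 8 genes summed to 72.4, 59.9 and 65.6 FPKM in the OV-BRCA1 group and 47.9, 51.6 and 52.9 FPKM in the NC group. SOCS2 made up 33.1% to 43.5% and SOCS5 21.4% to 24.6% of that sum in single samples. The share of SOCS1 was 8.05% to 13.6% in the OV-BRCA1 group and 6.18% to 7.20% in the NC group, and that of SOCS3 was 6.59% to 7.69% and 8.43% to 10.2%. The mean of SOCS3 itself was 4.80 against 4.76 FPKM, so its share was lower because the sum was larger. Of 7 SOCS pseudogenes in the files, 5 were listed at 0 in every sample, and the highest value was 0.491 FPKM for SOCS5P4.

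The genes most like SOCS1 and SOCS5 were found by the distance between profiles of log2(FPKM + 1) over the 6 samples, each set to 0 at its own NC mean. For SOCS1 these were HIST1H4E (distance 0.106), TLE4 (0.141) and AL356804.1 (0.147). HIST1H4E, a histone H4 gene with near-identical copies, stood at 6.85, 8.88 and 6.69 against 3.51, 4.20 and 3.59 FPKM, also highest in OV-BRCA1 sample 2. TLE4 is a transcriptional corepressor. For SOCS5 they were MAP3K1 (0.0438), LY6K (0.0749) and EIF5 (0.0773). MAP3K1, a kinase upstream of JNK, had a mean of 4.27 against 3.20 FPKM.

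Signals that SOCS proteins restrain were next described by gene lists, each beside the 16.4% of all tested genes that were higher and the 18.9% that were lower. Of the JAK-coupled cytokines, 12 of 43 were tested. CSF3 and IFNL1 were below 0.5 FPKM in every NC sample and entered the test only through the OV-BRCA1 group, so their direction was set by the filter. Of the other 10, 6 rose and none was lower, also at an unadjusted p-value below 0.05 in limma. IL24, among these 6, was below 0.5 FPKM in NC sample 1 (0.421), so it too needed OV-BRCA1 samples to pass the filter. With 1 FPKM required in every sample, 5 cytokines passed. LIF, an IL-6 type cytokine, stood at 45.5 to 48.0 FPKM in the OV-BRCA1 group against 8.84 to 9.03 in the NC group. IL6 itself stood at 567.1 ± 19.6 against 169.4 ± 13.4 FPKM (SD, n = 3 each), and IL11 at 36.4 ± 1.34 against 5.02 ± 0.581. These cytokines are known inducers of SOCS3, whose own level was given above.
Of the JAK-coupled receptors, 23 of 42 were tested, of which 9 rose and 1, IL11RA, fell. IL6ST rose by 0.73 on the log2 scale (limma adjusted p = 2.46e-04), from 12.8 ± 0.164 to 21.9 ± 0.688 FPKM (SD, n = 3 each). IL13RA2, a decoy receptor for IL-13, and IL7R rose by 2.95 and 2.40. Among the receptors listed at 0 in every sample were IL2RB and IL2RA, subunits of the receptor for IL-2, whose signal CISH restrains.
Of the JAK kinases and STAT factors, 10 of 11 were tested, of which 2 rose and 3 fell, with a median log2 fold change of -0.04. STAT2, the interferon-specific factor, was one of those that rose (log2 fold change 0.93, limma adjusted p = 2.18e-04). STAT5B, which drives CISH and SOCS2, fell from 27.8 ± 0.455 to 18.9 ± 1.21 FPKM (SD, n = 3 each), with log2 fold change -0.54 (limma adjusted p = 0.00147). JAK1 and TYK2, both kinases that SOCS1 inhibits, also fell, by 0.28 and 0.58 on the log2 scale. JAK2 lay in the other direction, at 0.18, and did not pass (limma adjusted p = 0.274).

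Other brakes on the same pathway were mixed. Of 13 tested genes, 3 rose and 1 fell, with a median log2 fold change of -0.05. USP18, which blocks the interferon receptor, rose from 9.83 ± 0.402 to 55.6 ± 0.762 FPKM (SD, n = 3 each), with log2 fold change 2.38 (limma adjusted p = 3.36e-06). The adaptor SH2B3 and the SUMO ligase PIAS2 rose by 0.47 and 0.45, and the SUMO ligase PIAS4 fell by 0.49. The change of USP18 was thus larger than that of SOCS1 (0.81) on the same scale, although the difference between them was not tested.
The ubiquitin ligase that the SOCS box recruits was measured throughout. Of its 15 genes, 1 rose and 2 fell, with a median log2 fold change of 0.03. ELOB, the elongin that binds the SOCS box together with ELOC, fell from 141.7 ± 4.33 to 117.9 ± 9.25 FPKM (SD, n = 3 each), with log2 fold change -0.27 (limma adjusted p = 0.0227). NEDD8, which activates the cullin, fell by 0.23 and its conjugating enzyme UBE2F rose by 0.27. Only 1 gene of this list passed without OV-BRCA1 replicate 2 or 3, without NC replicate 1 or 3, or with no filter on low values.
Of the other proteins with a SOCS box, 16 of 30 were tested, 4 fell and none rose. The share that passed was 25.0%, beside 35.3% of all tested genes in either direction and 18.9% as lower. At an unadjusted p-value below 0.05 in limma, 0 were higher and 5 lower, where 46.0% of all tested genes passed in either direction. SPSB3 fell from 27.4 ± 3.10 to 13.8 ± 1.28 FPKM (SD, n = 3 each), with log2 fold change -0.94 (limma adjusted p = 0.00118). RAB40C, RAB40B and ASB8 fell by 0.81, 0.39 and 0.36. The median log2 fold change of this list was -0.22, against 0.23 for the SOCS family. The count of 4 was 0 with protein-coding transcripts alone and 7 with length-weighted FPKM, and it was 2 without OV-BRCA1 replicate 3 or NC replicate 2.

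Target genes of the factors that induce SOCS genes were listed by factor. Of the GAS-driven interferon target genes, 16 were tested. CXCL10, CXCL11, GBP5 and SERPING1 were below 0.5 FPKM in every NC sample and entered the test only through the OV-BRCA1 group, so their direction was set by the filter. Of the other 12, 10 rose and none was lower, also at an unadjusted p-value below 0.05 in limma, and 9 passed with 1 FPKM required in every sample. IDO1, among these 10, was below 0.5 FPKM in NC sample 1 (0.432), so it too needed OV-BRCA1 samples to pass the filter. TAP1 and GBP1 rose by 2.18 and 2.37 on the log2 scale, beside 0.81 for SOCS1. Of 17 tested STAT3 target genes, 3 rose and 6 fell, with a median of -0.18. FOS fell from 312.3 ± 15.2 to 70.6 ± 2.33 FPKM (SD, n = 3 each), with log2 fold change -2.13, while BCL2L1 and OSMR rose by 0.86 and 0.43. Of 8 tested STAT5 target genes, 3 rose and 4 fell, with a median of -0.04. Among them CCND1 rose by 1.70 and ID1 fell by 0.57.
Partners that SOCS proteins bind outside the JAK pathway were mixed. Of 16 tested, 3 rose and 1 fell, and the median log2 fold change was 0.08. The receptor tyrosine kinases MET and EGFR rose by 1.13 and 0.65, the focal adhesion kinase gene PTK2 by 0.27, and the phospholipase PLCG1 fell by 0.69. The genes of the kinases KIT and FLT3, which SOCS6 binds, were listed at 0 in every sample.

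**Figure D4:**
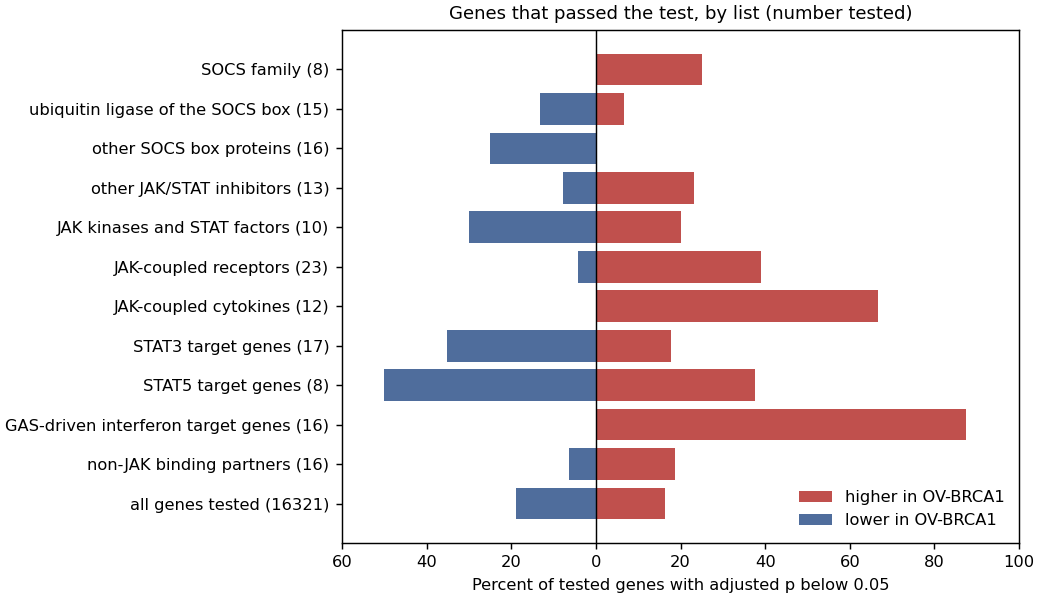
Percent of the tested genes of each list with an adjusted p-value below 0.05 (horizontal axis), with the number tested in brackets. Genes higher in the OV-BRCA1 group are to the right in red, and lower genes to the left in blue. Among the tested genes, 2 cytokines and 4 GAS-driven genes were tested only through the OV-BRCA1 group. IL24 and IDO1 also needed OV-BRCA1 samples to pass the filter. The SOCS family stands at 25.0% higher and 0 lower, beside 16.4% and 18.9% of all tested genes.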

How the data were processed

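mRNA was captured from SiHa cells 48 h after transfection, 3 OV-BRCA1 and 3 NC samples, grouped by their labels. The deposited FPKM values are the authors' own. They discarded reads with adapters, unknown bases or low quality and scaled the reads to length and library. The submitters' processing notes name FastQC, HISAT2 and hg38. The quantifier, its annotation and its use of strand are not given in the sources used here. The 199167 transcript values were summed over 58174 genes, named from GENCODE 29. Since FPKM is not a count, the authors' DESeq test could not be run. Genes with 0.5 FPKM or more in 3 or more samples were tested with limma 3.58.1 in R 4.3.3 (trend, no block) on log2(FPKM + 1), with Benjamini-Hochberg adjustment over all of them, and the script was tested on simulated data. Summing FPKM over transcripts of unequal length makes a gene's value depend on how fragments were assigned to transcripts.

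The study's supplement lists total reads per library, which were not used here. The fragments behind each value were estimated from low FPKM values, and whole reads could not be recovered. An exact permutation test of 3 against 3 samples cannot give a p-value below 0.1.

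The family members and the gene lists were chosen with earlier results of these data known. Named were the members, BRCA1, the 3 genes of lowest adjusted p-value in each list, the 3 nearest genes of each member that passed, and genes or pseudogenes overlapping or copying a member. The markers named are from the marker lists. CSF3, IFNL1, IL24, CXCL11, GBP5, SERPING1, IDO1, IL11RA, JAK1, JAK2, TYK2, PIAS2, ASB8, PTK2 and the genes listed at 0 were named after their values were seen. A gene covered by this rule is not reported here.

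The alternatives were a pseudocount of 0.1, no filter, a filter of 1 FPKM in every sample, a block for replicate number, leaving out single samples, 2 other scalings, protein-coding transcripts alone, the most abundant transcript, and robust moderation. SOCS2 without SOCS2-209 and length-weighted FPKM (FPKM times transcript length in kb, summed per gene) were added after seeing the data. Promoter windows were from RefSeq on GRCh38.p14. Plots were drawn with matplotlib 3.10.9.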

Additional observations from a re-analysis of the deposited data

How the results depend on the processing

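SOCS1 passed in 15 of 15 planned settings (log2 fold change 0.69 to 0.97) and SOCS5 in 14 (0.30 to 0.51). SOCS5 missed only with its most abundant transcript alone. With no filter on low values, 1 gene of the SOCS box ubiquitin ligase and 0 member transcripts passed, against 3 and 1. With 1 FPKM in every sample, 1 member was lower (SOCS7), and 5 cytokines and 9 GAS-driven genes passed, against 8 and 14. With scaling to nuclear protein-coding genes, 1 member was lower and 0 member transcripts passed, and SOCS3 was at -0.023. With protein-coding transcripts alone, 3694 of 11862 tested genes passed against 5764 of 16321, with 0 other SOCS box genes against 4 and 3 JAK kinases and STAT factors against 5. The most abundant transcript put SOCS2 at -0.10. Length-weighted FPKM, added after seeing the data, gave 7 other SOCS box genes, 7 non-JAK partners (against 4) and CISH at 0.031. The causes were not tested.

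With single samples left out, 2 to 3 members were higher and 0 lower, 4415 to 4765 of all genes passed, and the counts were 1 to 3 for the ubiquitin ligase, 2 to 4 for the other SOCS box genes and 0 for member transcripts. SOCS3 ranged from -0.029 to 0.034 and CISH from -0.10 to 0.10, neither past the threshold.

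The replicate numbers did not pair the samples, as same-numbered samples correlated at -0.0244, 0.025 and 0.0136 in their deviations from the group means. With the replicate block, 2 members were higher, 2 other SOCS box genes and 0 member transcripts passed, and no other call of a member changed. CISH had the fewest estimated fragments, 27.4 to 45.6 per sample.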
